A study of Mus musculus with 12 samples.

Results

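The 43 genes described here serve ribosome production and the cell growth that goes with it: subunits of RNA polymerase I (Pol I), nucleolar proteins that modify and assemble ribosomal RNA (rRNA), and growth and metabolism genes known as targets of the transcription factor MYC. They were taken by symbol from a list of genes by function, chosen with earlier results of these data known, and all 43 were present among the 23472 genes of the deposited count table. All 43 also passed the filter on low counts, which kept 13184 genes for testing. By role, 2 are Pol I subunits, 5 are nucleolar proteins with several functions, 6 belong to small nucleolar ribonucleoproteins (snoRNPs), 7 assemble the small ribosomal subunit, 13 assemble the large subunit and 10 are MYC-target growth and metabolism genes.

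The cells were LT-HSCs, long-term haematopoietic stem cells that maintain the blood for life, taken from the bone marrow of C57BL/6 mice, and their RNA was sequenced from poly-A libraries. Jak1 encodes a tyrosine kinase that relays the signals of interferon and interleukin receptors. The 6 wt libraries were from cre-negative animals and the 6 libraries labelled Jak1 KO from cre-positive ones, and both genotypes had received 4 doses of poly(I:C), a double-stranded RNA mimic given to switch on the deletion, 4 to 6 weeks before harvest. Replicates 1 to 3 of each genotype carry the letters VD in their column names and replicates 4 to 6 the letters ZL. The VD names also carry MXminus for the wt and MXplus for the Jak1 KO libraries, letters that the labels do not explain. What these name sets stand for is not stated in the labels, nor are the ages, the driver of Cre in words, the deleted part of Jak1 or whether each library came from 1 animal. The p-values below therefore measure the spread between these libraries, which may be technical, and effects of Cre and of the deletion cannot be told apart.

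As background, Pol I transcribes one long precursor rRNA in the nucleolus, snoRNPs guide its chemical modification, and many assembly factors fold and cut it into the small and large ribosomal subunits before export to the cytoplasm. MYC raises the transcription of many genes of this route, together with enzymes of polyamine, nucleotide and lactate metabolism and translation factors, and it binds DNA with its partner MAX at the E-box CACGTG. LT-HSCs are mostly quiescent and are known for a low rate of protein synthesis, so that ribosome production is closely tied to their entry into the cell cycle.

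The E-box was searched, as the letters CACGTG (which read the same on both strands), in RefSeq promoter windows of GRCm38.p6 that run from 250 bases before to 50 bases after a start site. The table held 38 of the 43 genes, and 11 of these 38 (28.9%) had at least 1 match, in 13 of 50 windows (26.0%). Among the windows of all tested genes the share was 9.99%, and among all 32851 promoter windows 7.15%. By gene, at least 1 match was found in 11.8% of tested genes and 8.09% of all genes with a window. The genes with a match were Eif4e, Eif5a, Grwd1, Hspd1, Imp4, Ldha, Mybbp1a, Nop2, Pes1, Utp20 and Wdr43, and a match describes letters in a window, not binding. The 250 bases before the start are shown for the 3 genes of this table with the smallest p in the VD comparison below, Ldha with 2 matches beginning 145 and 48 bases before the start, Nop2 with 1 match 60 bases before it and Nolc1 with none, in lower case with CACGTG in capitals. The Ldha window lies inside the span of longer annotated transcripts of the gene.
Ldha, chr7:46845554-46845803, plus strand: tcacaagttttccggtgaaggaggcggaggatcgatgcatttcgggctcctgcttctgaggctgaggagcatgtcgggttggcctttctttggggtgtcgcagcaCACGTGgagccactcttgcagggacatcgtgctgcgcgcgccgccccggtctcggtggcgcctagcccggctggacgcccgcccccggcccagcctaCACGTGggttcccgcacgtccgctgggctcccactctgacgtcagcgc
Nop2, chr6:125131633-125131882, plus strand: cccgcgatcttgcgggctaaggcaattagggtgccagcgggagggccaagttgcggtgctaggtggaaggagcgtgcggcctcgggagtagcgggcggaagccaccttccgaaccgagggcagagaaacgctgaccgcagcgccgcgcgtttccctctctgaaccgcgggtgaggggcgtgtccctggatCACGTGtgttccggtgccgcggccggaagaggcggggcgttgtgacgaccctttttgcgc
Nolc1, chr19:46075597-46075846, plus strand: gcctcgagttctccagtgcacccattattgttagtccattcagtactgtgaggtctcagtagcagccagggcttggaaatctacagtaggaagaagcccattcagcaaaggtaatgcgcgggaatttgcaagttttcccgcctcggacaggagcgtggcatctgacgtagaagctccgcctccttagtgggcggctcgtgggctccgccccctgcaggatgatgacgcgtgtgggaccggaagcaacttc

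Total counts ran from 8989965 to 16798427 per library in the VD set and from 13804931 to 28701855 in the ZL set. Rn45s, the 45S precursor rRNA, took 14.8% to 22.6% of the counts in the VD libraries and 0.511% to 0.950% in the ZL libraries. The LT-HSC marker list was detected in full (13 of 13 genes), with summed normalised CPM (read counts scaled to library size) of 2632 to 3087 in VD wt, 2900.2 to 3433 in VD Jak1 KO, 3186 to 5241 in ZL wt and 2463 to 5018 in ZL Jak1 KO libraries. Within the VD set 1 of these 13 markers was called lower in Jak1 KO, Ly6a, which encodes the surface protein Sca-1 (log2 -1.61 ± 0.18, adjusted p = 0.000178, edgeR), and 1 higher, Hlf, a transcription factor of stem cells (log2 0.40 ± 0.08, adjusted p = 0.0322, edgeR). Of 13184 tested genes 96 were called lower and 46 higher there by edgeR. The part of Ly6a and Hlf in the VD results below was not tested. The gene-level count of Jak1 in the labelled Jak1 KO group was not below that in wt (0.18 higher on the log2 scale over 12 libraries, adjusted p = 0.945, edgeR), and since the deleted part is not given it does not check the labels.

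Per kilobase of coding sequence, the most abundant of the 43 genes in wt were Eif5a, a translation factor, at 2691 CPM, Ldha, the lactate dehydrogenase A subunit, at 912 CPM, Ncl (nucleolin) at 699 CPM and Npm1 (nucleophosmin) at 495 CPM. The lowest were Utp20, a scaffold of the small-subunit precursor, at 10.3 CPM and Tfb2m, a mitochondrial transcription factor, at 12.3 CPM per kilobase. In CPM, the 43 genes summed to 7941 to 8566 in the VD wt libraries and 6051 to 7647 in the VD Jak1 KO libraries, so that the groups of the VD set did not overlap. In the ZL set they did, at 9848 to 11687 CPM in wt and 9771 to 14168 CPM in Jak1 KO libraries. In bulk RNA, fewer cells that express a gene and less of its RNA per cell cannot be told apart.

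**Figure D1:**
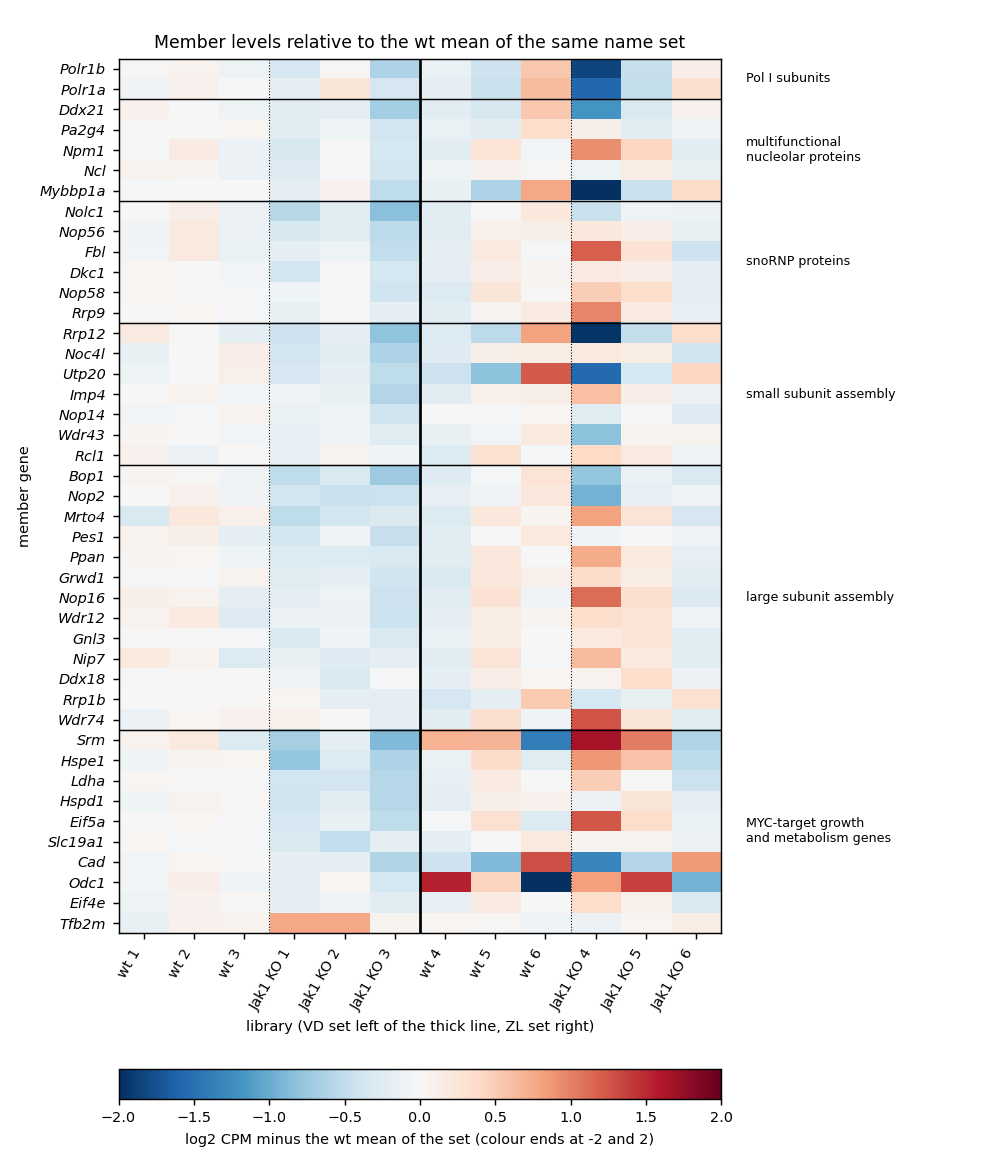
Each row is 1 of the 43 genes, ordered by role, and each column 1 of the 12 libraries; colour gives log2 CPM minus the wt mean of the same name set, from -2 (blue) to 2 (red). The 3 VD Jak1 KO columns are mostly blue, and in the ZL set wt 6, Jak1 KO 4 and Jak1 KO 6 show both strong red and strong blue.

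Over all 12 libraries, with name set as a term, none of the 43 genes passed the threshold of adjusted p under 0.05 (edgeR), where 0.440% of all tested genes did. At an unadjusted p under 0.05 there were 3, all lower in the libraries labelled Jak1 KO, against a background of 5.06% of tested genes: Bop1, Nolc1 and Nop2. DESeq2 called none of the 43 and limma-voom with library quality weights called 1, Ldha (log2 fold change -0.35, adjusted p = 0.0475), where limma-voom called 1.32% of tested genes lower. The fold change was below 0 for 31 of 43 genes, and their median was -0.10 on the log2 scale against -0.01 for all genes tested.

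The VD and ZL sets gave different pictures. Within the VD set, 41 of the 43 genes had a fold change below 0, where 49.1% of all tested genes did, and the median was -0.21 (all genes 0.005). In 20 genes every Jak1 KO library stood below every wt library, against 13.2% of tested genes, and in none did every one stand above. Ldha alone passed the adjusted threshold (edgeR), where 0.728% of tested genes were called lower, and 18 genes were lower at an unadjusted p under 0.05 against a background of 7.17%. DESeq2 called 6 of the 43 lower in the VD set, Ldha, Nop2, Bop1, Nolc1, Eif5a and Srm, against 1.71% of tested genes.

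Within the ZL set none of the 43 genes was called by edgeR (0.00% of tested genes) or DESeq2, and none had an unadjusted p under 0.05, where 1.60% of tested genes did. The fold change was below 0 for 17 of 43 (50.4% of tested genes), with a median of 0.07, and in 1 gene, Nop14, every Jak1 KO library stood below every wt library (2.34% of tested genes). The difference between the sets was tested as an interaction (ZL minus VD). It was below 0 for 9 of the 43 genes, where 50.7% of tested genes were. The median was 0.29 against -0.01 for all genes. The interaction test called none of the 43 by edgeR (0.00% of tested genes), DESeq2 or limma-voom. By edgeR 1 gene, Eif5a, had an unadjusted p under 0.05 (1.38% of tested genes). A difference in response between the sets was thus not shown for single genes.

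**Figure D2:**
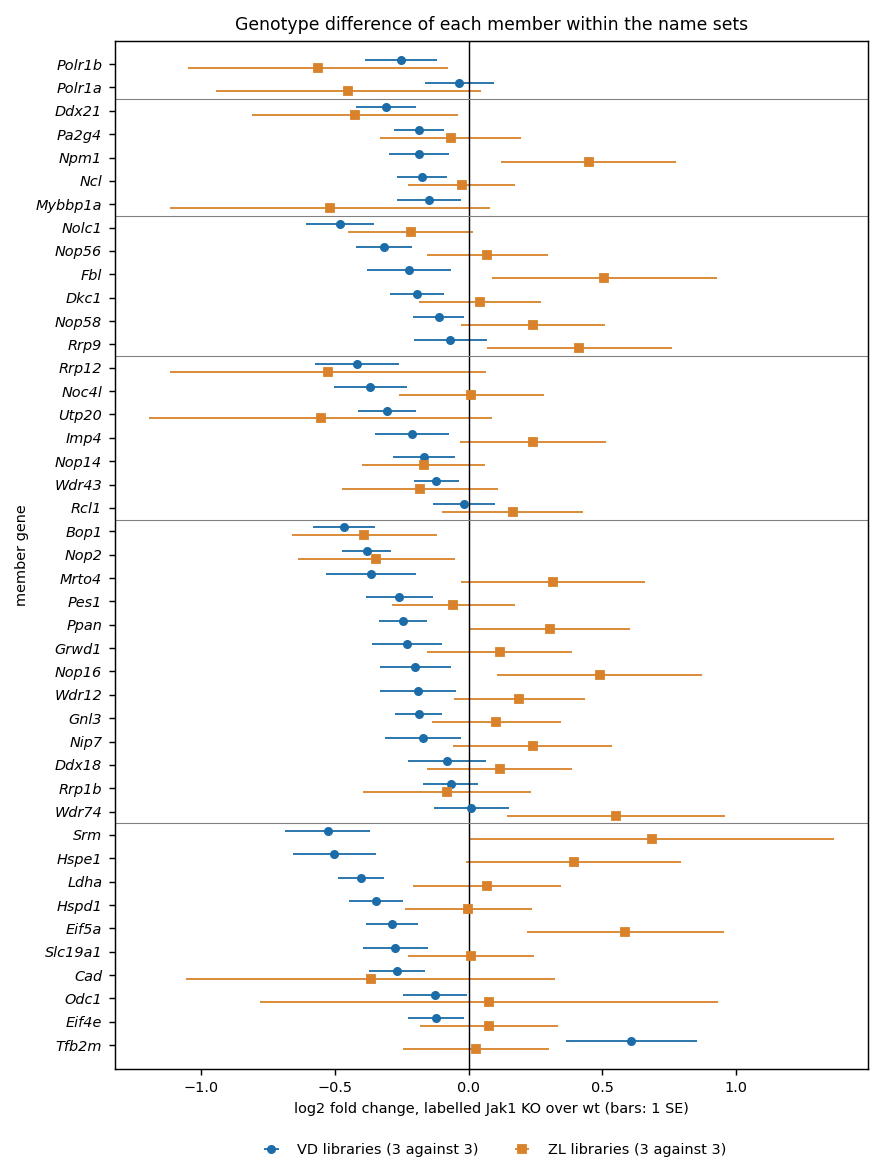
The log2 fold change of each of the 43 genes, labelled Jak1 KO over wt, is drawn with bars of 1 SE for the VD libraries (circles, 3 against 3) and the ZL libraries (squares, 3 against 3), in order of role. In the VD set all genes but Tfb2m and Wdr74 lie below 0, while the ZL values spread to both sides with wider bars.

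The Pol I subunits came first in the route. Polr1b, the second-largest subunit, stood at 128, 132 and 116 CPM in VD wt and 98.7, 127 and 81.4 CPM in VD Jak1 KO libraries. ZL levels were 133, 109 and 212 CPM in wt and 40.9, 106 and 159 CPM in Jak1 KO, with wt 6 the highest and Jak1 KO 4 the lowest of all 12. The groups overlapped in both sets, and over 12 libraries the log2 fold change was -0.43 ± 0.27 SE (adjusted p = 0.945, edgeR). Polr1a, the largest subunit, was at 125, 139 and 129.8 CPM in VD wt and 115, 155 and 104 CPM in VD Jak1 KO. Its ZL values were 69.9, 58.7 and 124 CPM in wt and 26.8, 57.4 and 100.02 CPM in Jak1 KO libraries. Jak1 KO 4 was again the lowest, and wt 6 the highest of the ZL libraries, and the difference over 12 libraries was -0.26 ± 0.27 on the log2 scale (adjusted p = 0.945, edgeR).

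Of the 5 nucleolar proteins with several functions, all were below 0 in the VD set (median -0.19) and 4 in the ZL set (median -0.07). Ncl, which binds precursor rRNA and is the most abundant of them in CPM, was at 1385, 1372 and 1224 CPM in VD wt and 1113, 1295 and 1028 CPM in VD Jak1 KO libraries. It was at 1517, 1726 and 1664 CPM in ZL wt and 1516, 1817 and 1470.1 CPM in ZL Jak1 KO. The groups overlapped in both sets, and the log2 fold change over 12 libraries was -0.12 ± 0.12 (adjusted p = 0.945, edgeR). Ddx21, an RNA helicase linking Pol I to rRNA processing, measured 315, 298 and 276 CPM in VD wt against 252, 261 and 186 CPM in VD Jak1 KO, with no overlap. Its ZL levels were 122, 113 and 206 CPM in wt and 61.9, 114 and 150.4 CPM in Jak1 KO, with overlap. The VD difference was -0.31 ± 0.11 (log2, adjusted p = 0.227, edgeR). Pa2g4, a growth-regulated protein of nucleolus and cytoplasm, stood at 365, 368 and 381 CPM in VD wt and 318, 351 and 285 CPM in VD Jak1 KO, again without overlap (log2 -0.19, adjusted p = 0.398, edgeR). ZL libraries of both genotypes were much lower, at 80.8, 76.3 and 114 CPM in wt and 96.5, 76.8 and 84.1 CPM in Jak1 KO. Npm1, a nucleolar chaperone, and Mybbp1a, a nucleolar partner of transcription factors, had VD differences of -0.19 and -0.15 and ZL differences of 0.45 and -0.52 (log2).

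All 6 snoRNP genes had VD fold changes below 0 (median -0.21), and 1 of 6, Nolc1, did in the ZL set (median 0.16). Nolc1 encodes a chaperone of snoRNPs and lies at chr19:46075847-46085543 (GRCm38). It was at 225, 248 and 210.0 CPM in VD wt and 154, 195 and 128 CPM in VD Jak1 KO, and the groups did not overlap. The ZL libraries had 214, 248 and 286 CPM in wt and 181, 232 and 227 CPM in Jak1 KO, where they did. Its log2 fold change was -0.48 ± 0.13 in VD (adjusted p = 0.0895, edgeR), -0.22 ± 0.23 in ZL and -0.37 ± 0.15 over 12 libraries (adjusted p = 0.838, edgeR). Nop56, a core protein of the box C/D particles that methylate rRNA, stood at 224, 268 and 216 CPM in VD wt and 188, 203 and 163 CPM in VD Jak1 KO, without overlap. At 339, 421 and 425 CPM in ZL wt and 453, 429 and 355 CPM in ZL Jak1 KO, it overlapped there. Its VD difference was -0.32 ± 0.10 and its ZL difference 0.07 ± 0.23 (log2). Nop58, the other core protein, was at 243, 239 and 230.3 CPM in VD wt and 225, 236 and 181 CPM in VD Jak1 KO, and at 342, 489 and 416 and 577, 525 and 361 CPM in the ZL groups in the same order. It overlapped in both sets, with a difference of 0.04 ± 0.16 over 12 libraries (log2, adjusted p = 0.974, edgeR). The remaining 3 were Fbl, the methyltransferase (VD -0.22, ZL 0.51), Dkc1, the pseudouridine synthase (-0.19 and 0.04), and Rrp9, a protein of the U3 snoRNP (-0.07 and 0.42, all log2).

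All 7 small-subunit assembly genes were below 0 in the VD set (median -0.21), where 49.1% of tested genes were. In 5 of them every VD Jak1 KO library stood below every VD wt library, as in 13.2% of tested genes. In the ZL set 4 of 7 were below 0 (median -0.17), where 50.4% of tested genes were. Nop14, a factor of the early small-subunit precursor, was at 78.4, 80.1 and 84.8 CPM in VD wt and 74.0, 75.9 and 61.3 CPM in VD Jak1 KO. Its ZL values were 114, 112 and 116 CPM in wt and 96.4, 111 and 95.7 CPM in Jak1 KO. It was the 1 gene of the 43 whose Jak1 KO libraries stood below all wt libraries in both sets. Of tested genes 13.2% did so in VD and 2.34% in ZL, and the share in both was not counted. The closest ZL libraries for Nop14 were at 111 and 112 CPM. Its difference over 12 libraries was -0.19 ± 0.12 (log2, adjusted p = 0.945, edgeR). Rrp12, needed for export of the small subunit, stood at 76.2, 67.8 and 58.9 CPM in VD wt and 50.3, 59.1 and 38.6 CPM in VD Jak1 KO libraries. ZL values ranged widely, with 38.3, 32.2 and 81.3 CPM in wt and 11.8, 33.2 and 59.5 CPM in Jak1 KO. Groups overlapped in both sets, and the 12-library difference of -0.50 came with an SE of 0.32 (log2, adjusted p = 0.945, edgeR). Wdr43, a part of the small-subunit processome and the most abundant of the group in CPM, was at 178, 170.0 and 164 CPM in VD wt and 152, 161 and 144 CPM in VD Jak1 KO, without overlap. At 277, 296 and 349 CPM in ZL wt and 172, 317 and 321 CPM in ZL Jak1 KO it overlapped there. Its VD difference was small, -0.12 ± 0.08 (log2, adjusted p = 0.571, edgeR). Utp20 and Noc4l, both factors of the same precursor, had VD differences of -0.31 and -0.37, Imp4, a U3 snoRNP protein, -0.21, and Rcl1, a nucleolar processing factor, -0.02. Their ZL differences were -0.55, 0.01, 0.24 and 0.17 (log2).

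Of the 13 large-subunit assembly genes, 12 were below 0 in the VD set (median -0.20) and 4 in the ZL set (median 0.12). Bop1, which forms the PeBoW complex with Pes1 and Wdr12 and lies at chr15:76452988-76477249 (GRCm38), had the smallest p of the 43 over 12 libraries. It was at 110.1, 108 and 101 CPM in VD wt and 75.2, 86.2 and 64.2 CPM in VD Jak1 KO, so that every Jak1 KO library was lower. Among ZL libraries it stood at 125, 147 and 181 CPM in wt and 87.0, 136 and 121 CPM in Jak1 KO, with overlap. The log2 fold change was -0.47 ± 0.12 in VD (adjusted p = 0.0716, edgeR), -0.39 ± 0.27 in ZL and -0.45 ± 0.15 over both (adjusted p = 0.587, edgeR). The partners Pes1 and Wdr12 had VD differences of -0.26 and -0.19 and ZL differences of -0.06 and 0.19 (log2). Nop2, an rRNA cytosine methyltransferase at chr6:125131883-125144753 (GRCm38), was at 138, 146 and 132 CPM in VD wt and a narrow 106, 102 and 103 CPM in VD Jak1 KO. Its ZL values were 164, 175 and 216 CPM in wt and 95.6, 165 and 175 CPM in Jak1 KO. The VD groups were well apart (139 ± 7.39 against 104 ± 2.12 CPM, mean and SD, n = 3 each), and the log2 fold change was -0.38 ± 0.09 in VD (adjusted p = 0.0592, edgeR) and -0.39 ± 0.15 over 12 libraries (adjusted p = 0.838, edgeR).

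Gnl3 (nucleostemin), a nucleolar GTP-binding protein of proliferating stem cells and the most abundant large-subunit gene in CPM, stood at 181, 182 and 175 CPM in VD wt and 147, 168 and 145 CPM in VD Jak1 KO, with no overlap. It was at 249, 301 and 270.2 CPM in ZL wt and 312, 329.7 and 235 CPM in ZL Jak1 KO, with overlap. The differences were -0.19 ± 0.09 in VD and 0.10 ± 0.24 in ZL (log2; adjusted p = 0.954 over 12 libraries, edgeR). Ppan and Grwd1, both large-subunit assembly factors, also had VD groups without overlap, at -0.24 and -0.23 (log2). Mrto4, a relative of the ribosomal stalk protein that holds its place during assembly, was at -0.36, and Nop16, Nip7, Ddx18 and Rrp1b were at -0.20, -0.17, -0.08 and -0.07 (VD, log2). Wdr74 was the 1 gene of this group above 0, at 0.01.

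The 10 MYC-target growth and metabolism genes had the lowest VD median of the 6 roles (-0.28). Of them 9 were below 0, where 49.1% of tested genes were. In 6 every VD Jak1 KO library stood below every VD wt library, as in 13.2% of tested genes. In the ZL set 2 of 10 were below 0 (median 0.07), where 50.4% of tested genes were. Ldha, which lies at chr7:46842274-46855627 (GRCm38), was at 632, 615 and 599 CPM in VD wt and 471, 475 and 414 CPM in VD Jak1 KO libraries. It stood at 1211, 1524 and 1348 CPM in ZL wt and 1904, 1345 and 1006 CPM in ZL Jak1 KO. Every VD Jak1 KO library was below every VD wt library, and the ZL groups overlapped, with Jak1 KO 4 the highest and Jak1 KO 6 the lowest. The VD means were 615 ± 16.4 CPM in wt and 453 ± 33.9 CPM in Jak1 KO (SD, n = 3 each) on the scale of all 12 libraries. In the fit scaled on the VD libraries alone Ldha fell by 24.3% (log2 -0.40 ± 0.09, adjusted p = 0.0377, edgeR). The call was lost when wt 1, wt 2, wt 3, Jak1 KO 1 or Jak1 KO 3 was left out (adjusted p = 0.169, 0.118, 0.0695, 0.138 and 0.112, edgeR) and kept without Jak1 KO 2 (adjusted p = 0.0209), while the fold change stayed between -0.44 and -0.34. With any 1 of those 5 libraries left out edgeR called none of the 43 genes in the VD set, and without Jak1 KO 2 it called 9, where it called 2.69% of all tested genes. The ZL difference was 0.07 ± 0.28, and over 12 libraries -0.19 ± 0.16 (adjusted p = 0.945, edgeR).

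Eif5a was at 874, 892 and 850.4 CPM in VD wt and 690.1, 786 and 612 CPM in VD Jak1 KO, without overlap. Its ZL values were 1554, 1966 and 1323 CPM in wt and 3749.6, 2039 and 1454 CPM in Jak1 KO. Jak1 KO 4 was the highest of all 12 libraries, and the log2 difference was -0.29 ± 0.10 in VD and 0.59 ± 0.37 in ZL (interaction adjusted p = 0.975, edgeR). Hspd1, the mitochondrial chaperonin Hsp60, stood at 175, 194 and 189 CPM in VD wt and 141, 161 and 125 CPM in VD Jak1 KO, without overlap. At 256, 319.7 and 313 CPM in ZL wt and 273, 349.9 and 261 CPM in ZL Jak1 KO, it overlapped there. The VD difference was -0.35 ± 0.10 (log2, adjusted p = 0.123, edgeR). Its partner Hspe1 (Hsp10) had a VD difference of -0.50 ± 0.16. Annotated spans of Hspd1 and Hspe1 overlap on chromosome 1, so reads in the shared stretch cannot be assigned to one of them without strand. Reads of Eif5a, Ldha, Npm1 and Hspe1 may also be split with their processed pseudogenes, as the counting rule is not given.

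Tfb2m and Wdr74 were the 2 genes above 0 in the VD set. Tfb2m stood at 10.3, 12.2 and 12.1 CPM in VD wt and 19.8, 19.6 and 11.9 CPM in VD Jak1 KO libraries, high in Jak1 KO 1 and 2 and at the wt level in Jak1 KO 3. ZL levels were 18.3, 18.1 and 16.9 CPM in wt and 16.4, 18.2 and 19.7 CPM in Jak1 KO, with overlap. The VD difference of 0.61 ± 0.25 did not pass (log2, adjusted p = 0.286, edgeR). Srm, the spermidine synthase, had the lowest VD fold change of the 43 (-0.53 ± 0.16, adjusted p = 0.14, edgeR; adjusted p = 0.0464, DESeq2). It was at 139, 151 and 108 CPM in VD wt and 83.3, 115 and 71.2 CPM in VD Jak1 KO, and at 193, 191 and 45.3 CPM in ZL wt and 374, 242 and 78.1 CPM in ZL Jak1 KO. The groups overlapped in both sets, with wt 6 the lowest and Jak1 KO 4 the highest of the ZL libraries. Odc1, the ornithine decarboxylase that precedes Srm in polyamine synthesis, was at -0.13 in VD. In ZL it ran from 11.7 CPM in wt 6 to 137 CPM in wt 4, the widest spread among the 43 in any group (SD 1.81 on the log2 scale). Cad, which starts pyrimidine synthesis, Slc19a1, the reduced folate carrier, and Eif4e, the cap-binding translation factor, had VD differences of -0.27, -0.27 and -0.12 (log2).

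**Figure D3:**
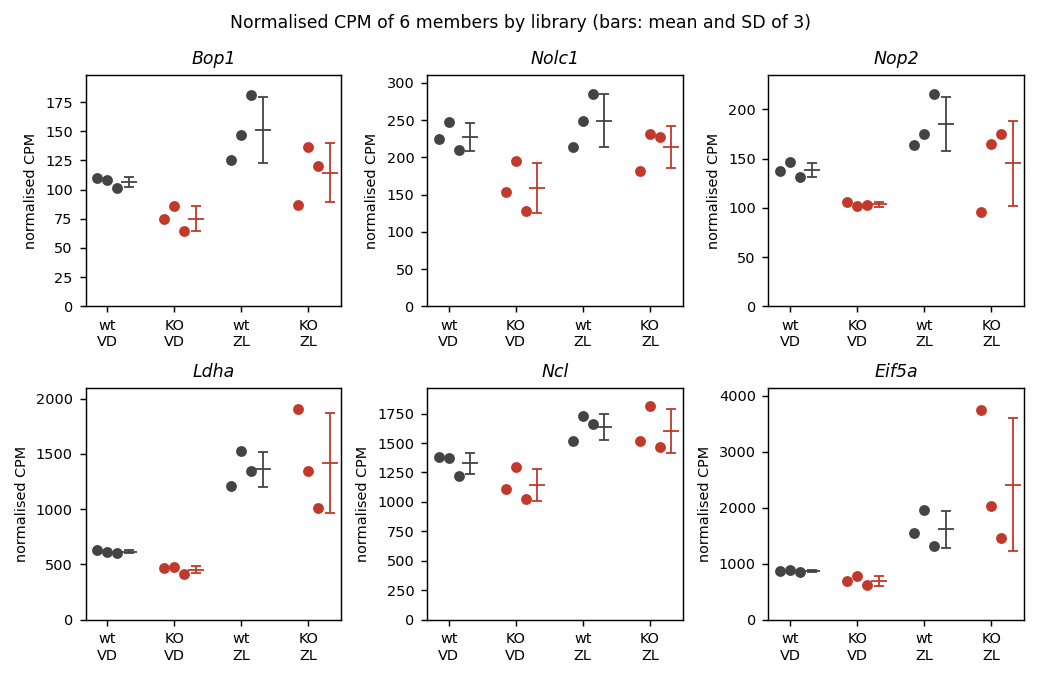
Normalised CPM of Bop1, Nolc1, Nop2, Ldha, Ncl and Eif5a is plotted for each library (points) with the mean and SD of the 3 libraries of each genotype and name set (bars), on linear axes that start at 0. The VD Jak1 KO points of Bop1, Nolc1, Nop2, Ldha and Eif5a lie below all VD wt points, and the ZL points of both genotypes overlap in all 6 genes.

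Single libraries carried unequal parts of these differences. Jak1 KO 3 was the lowest of the 6 VD libraries for 33 of the 43 genes, where 22.0% of all tested genes had their lowest VD value in that library. Its median deviation from the VD wt mean was -0.40 on the log2 scale, against -0.24 in Jak1 KO 1 and -0.15 in Jak1 KO 2. Leaving Jak1 KO 3 out gave a VD median of -0.13 over the 43 genes, with 40 below 0. Among VD wt libraries, wt 3 was the lowest for 26 of the 43 genes (35.6% of tested genes), with a median deviation of -0.04. The replicate 3 libraries wt 3 and Jak1 KO 3 also had the highest summed neutrophil markers of the VD set (1419 and 1411 CPM). Their Rn45s shares were its lowest (15.7% and 14.8%). What wt 3 and Jak1 KO 3 have in common was not tested. The median SD of log2 CPM over the 43 genes was 0.08 in VD wt, 0.18 in VD Jak1 KO, 0.24 in ZL wt and 0.43 in ZL Jak1 KO. Over all tested genes it was 0.18, 0.20, 0.34 and 0.54 in the same order. The ZL libraries thus varied more among themselves, a spread not limited to the 43 genes, whose medians were the smaller ones in each group.

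In the ZL set the level of a gene relative to the other libraries moved with its coding length. For Jak1 KO 4, Spearman's rho between coding length and the deviation from the other 5 ZL libraries was -0.88 over the 43 genes, and for wt 6 and Jak1 KO 6 it was 0.84 and 0.82. In the VD libraries rho lay between -0.26 and 0.16. Over 12435 tested genes with a coding length it was -0.59 in Jak1 KO 4, 0.44 in wt 6 and 0.52 in Jak1 KO 6, so the order by length was not limited to these 43 genes. All these points share their library and its scaling, and rho is given as a description.

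In Jak1 KO 4, 19 of 20 genes with a coding length under 1500 bases stood above the other ZL libraries (median difference 0.74, log2), 7 of 15 from 1500 to 2500 bases did (median -0.05), and none of the 8 longer ones did (median -1.56). The longest were Utp20, Cad, Polr1a, Mybbp1a, Rrp12 and Polr1b. The ZL genotype difference followed the same order, with medians of 0.27, -0.00 and -0.48 and 1 of 20, 8 of 15 and 8 of 8 genes below 0. In the VD set the medians were -0.19, -0.26 and -0.26, with 18 of 20, 15 of 15 and 8 of 8 below 0. The part of length in the ZL genotype difference was not tested. With an exon length offset fitted within the ZL set, a setting added after the values were seen, the ZL median was 0.01 with 21 of 43 below 0, and within the VD set it was -0.22.

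**Figure D4:**
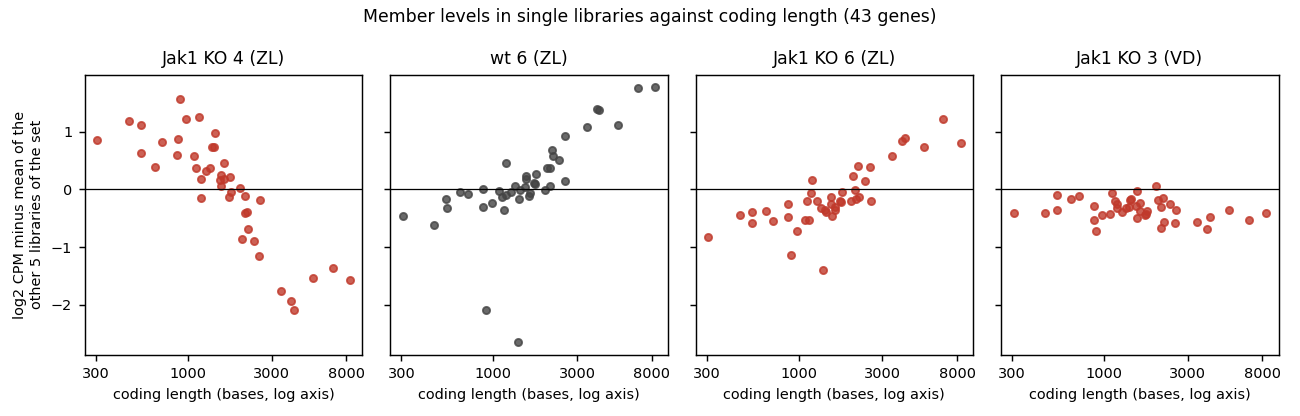
The deviation of each of the 43 genes in 1 library from the mean of the other 5 libraries of its name set (log2 CPM) is plotted against coding length in bases (log axis) for Jak1 KO 4, wt 6, Jak1 KO 6 and Jak1 KO 3. Values fall with length in Jak1 KO 4 and rise with it in wt 6 and Jak1 KO 6 (rho -0.88, 0.84 and 0.82), whereas Jak1 KO 3 lies below 0 at nearly all lengths.

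Between the name sets the 43 genes differed far more than between genotypes. In the ZL libraries 27 were higher than in VD and 5 lower at an adjusted p under 0.05 (edgeR), where 35.4% of tested genes were higher and 24.5% lower. The median was 0.71 (log2) against 0.20 for all genes. With DESeq2 size factors these were 0.58 and 0.06, with 23 of the 43 higher and 5 lower. Of 13184 tested genes 3939 were higher and 3699 lower with those factors. Nip7, an assembly factor of the large subunit, was 1.45 ± 0.18 higher (2.74-fold), Ldha 1.40 ± 0.17 and Eif5a 1.34 ± 0.24. The 5 lower genes were Pa2g4 (-1.96 ± 0.14), Cad (-1.37), Utp20 (-1.18), Ddx21 (-1.05) and Polr1a (-0.83). All 13 large-subunit genes were above 0 and 12 of them called, of which Ddx18 and Pes1 lay below 0 when an offset for exon length was fitted. With an exon length offset 21 of the 43 were called higher and 5 lower, and their median was 0.35. Of 13071 tested genes with an exon length, 4080 were called higher and 3276 lower, with a median of 0.10. Of the 43, 4 genes turned to below 0 with the offset. Ddx18 and Pes1 had been called higher (0.38 and 0.32) and stood at -0.09 and -0.05, no longer called. Hspe1 and Tfb2m had not been called. Without Jak1 KO 4 the median of the 43 was 0.39. The Rn45s share differed between the sets as given above. The summed neutrophil markers (8 of 8 listed genes detected) were 548 to 1419 CPM in VD wt, 729 to 1411 in VD Jak1 KO, 139.6 to 163 in ZL wt and 95.2 to 259.7 in ZL Jak1 KO, and no defining marker was at 0 in all libraries. Their part in the set difference was not tested.

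Myc itself was at 274, 295 and 273 CPM in VD wt and 225, 248 and 207 CPM in VD Jak1 KO, without overlap. ZL levels were 577, 658 and 685 CPM in wt and 522, 681 and 626 CPM in Jak1 KO, with overlap. Its log2 fold change was -0.27 ± 0.09 in VD (adjusted p = 0.179, edgeR), -0.06 ± 0.22 in ZL and -0.19 ± 0.12 over 12 libraries (adjusted p = 0.945, edgeR), and between the sets 1.31 ± 0.12. Mycn, a MYC relative expressed in stem cells, and Max, the binding partner, differed by -0.02 and -0.12 in VD and by -0.03 and -0.29 over 12 libraries (log2; adjusted p = 0.98 and 0.945, edgeR). Rn45s, the product of Pol I, differed by 0.06 ± 0.16 in VD and 0.17 ± 0.19 over 12 libraries (adjusted p = 0.945, edgeR). In poly-A libraries its count is no measure of rRNA synthesis.

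Other genes of the same route were counted from lists. Over 12 libraries edgeR called none of their members, where it called 0.440% of tested genes. At an unadjusted p under 0.05 there were 2 of 53 other small-subunit and snoRNP genes, 1 of 48 other large-subunit genes and 2 of 47 other MYC-target growth genes. There were none for the other Pol I machinery (19), the nuclear exosome (15), the MYC network (12), snoRNA host genes (11) and cytosolic ribosomal proteins (77). Of all tested genes 5.06% had such a p, and no list stood above that share. DESeq2 called none and limma-voom called 1, Ctps, the CTP synthase. In the VD set, 49 of 53 other small-subunit genes were below 0 (median -0.20), 36 of 48 other large-subunit genes (-0.12), 15 of 15 exosome genes (-0.12), 41 of 47 other MYC-target genes (-0.20), 12 of 19 other Pol I genes (-0.11), 7 of 12 MYC network genes (-0.04) and 50 of 77 ribosomal protein genes (-0.04). edgeR called none there. At an unadjusted p under 0.05, 14 other small-subunit, 11 other large-subunit, 16 other MYC-target and 3 other Pol I genes were lower, and DESeq2 called 3, 1, 5 and 1 of them. Of all tested genes 7.17% were lower at an unadjusted p under 0.05 and 1.71% by DESeq2, so that 1 of 48 large-subunit genes is a share near the background.

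By a fixed rule the 2 genes of each list with the smallest p over 12 libraries are named here. Mphosph10 and Bysl, both of small-subunit assembly, had VD differences of -0.58 ± 0.14 and -0.66 ± 0.17 (adjusted p = 0.0675 and 0.0912, edgeR), and DESeq2 called both. Ctps was at 76.1 ± 4.34 CPM in VD wt and 49.4 ± 7.67 CPM in VD Jak1 KO (SD, n = 3 each; log2 -0.59 ± 0.13, adjusted p = 0.0509, edgeR), and Nampt, an NAD synthesis enzyme, at -0.34. Ddx24 and Ftsj3 of large-subunit assembly were at -0.39 and -0.26, Exosc10 and Skiv2l2 of the exosome at -0.18 and -0.07, and Rrn3, the initiation factor of Pol I, at -0.33 (VD, log2). Taf1a, a subunit of the Pol I selectivity factor, was at 0.28. In the MYC network, Zbtb17 was at -0.12 and Mxd3 at 0.17, and the snoRNA host genes Snhg12 and Snhg7 both lay at 0.01 in VD (log2). Ribosomal protein genes stood on the other side in the ZL set, where 0 of 77 were below 0 and the median was 0.51, with none called by edgeR or DESeq2 and none at an unadjusted p under 0.05. The size of this median rested on Jak1 KO 4, where the list summed to 24112 CPM against 8695 to 13633 CPM in the other 5 ZL libraries. Without Jak1 KO 4 the median was 0.04, and 21 of 77 were below 0, where 6668 of 13184 tested genes were. Of the 43 genes 23 were then below 0 with a median of -0.00. Over 12 libraries 1 of 77 ribosomal protein genes was below 0 (median 0.21). Other lists lay above 0 in ZL too, with 0 of 11 snoRNA host (median 0.42), 5 of 19 other Pol I (0.28) and 5 of 15 exosome genes (0.21) below 0. Without Jak1 KO 4 these were 4, 9 and 10 genes (medians 0.04, 0.00 and -0.04). The remaining lists of the route had ZL medians from -0.06 to 0.06. In VD 7 of the 11 snoRNA host genes were below 0 (median -0.08). Rpl31 and Rps13 differed by 0.43 and 0.30 over 12 libraries. Ribosomal protein genes are short and have many processed pseudogenes, so their counts are uncertain.

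Cycling genes stood in the same direction as the 43 genes in the VD set. Of 24 genes of G2 and mitosis, 23 were below 0 (median -0.21), and of 24 S-phase genes all were (median -0.22). None was called by edgeR, and 10 and 11 were lower at an unadjusted p under 0.05 (7.17% of tested genes). DESeq2 called none and 3 of them lower (1.71% of tested genes). Plk1 and Prc1 of mitosis were at -0.50 and -0.26, and the replication helicase genes Mcm5 and Mcm2 at -0.43 and -0.41 (VD, log2). Summed CPM of the G2/M list was 2735 to 3081 in VD wt and 2140.1 to 2668 in VD Jak1 KO, and of the S-phase list 3717 to 4129 and 2788 to 3601, so that neither overlapped. The ZL sums of G2/M genes were 2593 to 2952 and 2524 to 2670.4 CPM, with 16 of 24 genes below 0 (median -0.17). Those of S-phase genes were 4766 to 5804 and 4681 to 5005 CPM, with 13 of 24 below 0 (median -0.04, against 50.4% of tested genes). Over 12 libraries 4 G2/M and 3 S-phase genes were lower at an unadjusted p under 0.05 (5.06% of tested genes in either direction). There edgeR called none of them, and limma-voom called Plk1 lower (1.32% of tested genes). Among 13 targets of nucleolar stress and p53, 6 were below 0 in VD (median 0.01), with none called by edgeR or DESeq2 and none at an unadjusted p under 0.05. Gdf15 and Phlda3 had VD wt means of 0.783 and 1.47 CPM.

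Among markers of other cell types, edgeR called members of the megakaryocyte list alone within the VD set, and none of the erythroid, neutrophil, monocyte and macrophage, B-cell, T and NK or endothelial and stromal lists. The 6 megakaryocyte markers, all detected, summed to 797 to 1075 CPM in VD wt and 441 to 477 CPM in VD Jak1 KO, and to 921 to 1016 and 398 to 770.4 CPM in the ZL groups. Of them 3 were called lower in VD, where 0.728% of tested genes were. Itga2b was also called lower over 12 libraries (log2 -1.08 ± 0.20, adjusted p = 0.0247, edgeR), where 0.440% of tested genes were called. The erythroid markers summed to 49.2 to 302 CPM in VD wt, the highest in wt 2, and 28.3 to 45.3 CPM in VD Jak1 KO. Hba-a1 and Hba-a2 were at 0 in all libraries. Within VD all 4 tested erythroid markers were below 0 (median -1.13, log2). Of these, 3 had an unadjusted p under 0.05 (edgeR), where 7.17% of tested genes were lower at that p. Sums of B-cell markers were 30.2 to 47.9 and 30.8 to 37.1 CPM, of T and NK markers 43.3 to 78.8 and 30.0 to 47.0 CPM, with Cd3e, Cd3d, Cd3g and Cd8a at 0 in at least 6 of 12 libraries, and of monocyte and macrophage markers 234 to 321 and 247 to 305 CPM (VD wt and VD Jak1 KO). Endothelial and stromal markers summed to 90.8 to 109 and 108 to 126 CPM. In Jak1 KO 4 the B-cell, T and NK, and monocyte and macrophage sums were 145, 216 and 975 CPM. The other ZL libraries had 44.0 to 70.9, 58.4 to 105 and 349 to 518 CPM in the same order. Jak1 KO 4 was also highest of the ZL set for neutrophil and endothelial and stromal sums, but not for erythroid and megakaryocyte sums. Its LT-HSC marker sum of 2463 CPM was the lowest of all 12 libraries. The part of these transcripts in its levels was not tested. The part of cycling, megakaryocyte and erythroid transcripts in the VD difference of the 43 genes was not tested.

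**Figure D5:**
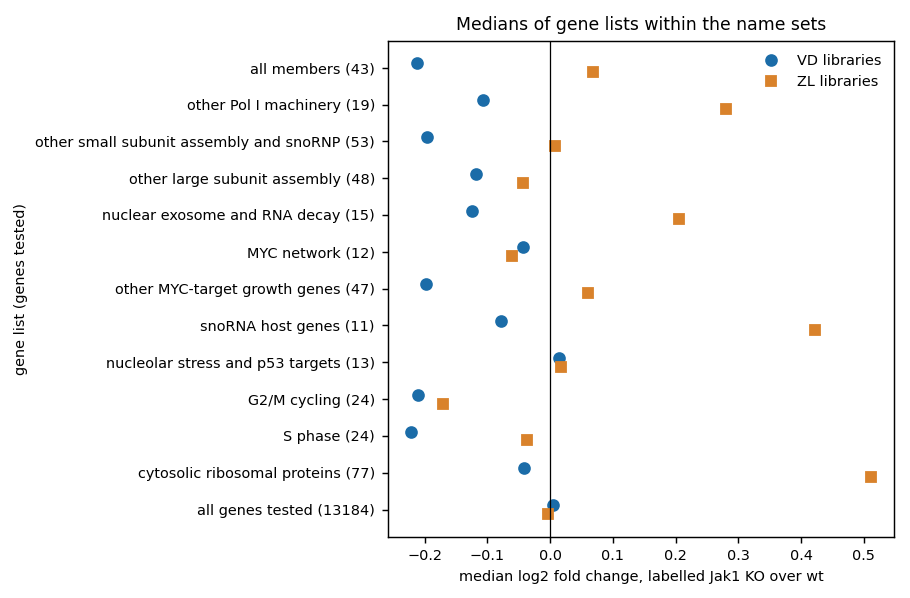
Median log2 fold change, labelled Jak1 KO over wt, is shown for the 43 genes, for each related gene list and for all genes tested (number of genes in brackets), within the VD libraries (circles) and the ZL libraries (squares). The VD medians of the 43 genes, the other small-subunit genes, the other MYC targets and both cycling lists lie near -0.2, and the ZL median of ribosomal protein genes lies at 0.51 (0.04 without Jak1 KO 4).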

How the data were processed

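Poly-A RNA-seq libraries of LT-HSCs (6 wt, 6 labelled Jak1 KO) were analysed from raw read counts per gene, as deposited by the authors in 1 table. STAR 2.3.0e, featureCounts, Subread and build mm10 are named in the submitters' processing notes. Which annotation was counted, with what strand setting and with which other versions is not given in the sources used here, so reads of antisense partners or overlapping genes cannot be separated. Columns were matched to samples through the sample descriptions, genotype came from the titles and name set from the descriptions.

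Genes were filtered with filterByExpr on genotype, scaled by TMM and fitted with name set and genotype in edgeR 4.0.16 (quasi-likelihood F test, R 4.3.3). The Benjamini-Hochberg adjustment ran over 13184 genes, with a threshold of 0.05. Each set was also fitted alone, and the difference between sets as an interaction. Fold changes are labelled Jak1 KO over wt or ZL over VD, and values after ± are SE for fold changes and SD for CPM. CPM uses library sizes TMM-scaled over all 12 libraries, whereas fits of 1 set were scaled within it, and log2 CPM a prior count of 2. Coordinates and start sites are from RefSeq GRCm38.p6 and coding lengths from GENCODE of the same assembly (21664 symbols matched directly and 1647 as older symbols). DESeq2 1.42.0, limma-voom (limma 3.58.1), other scalings and filters, a length offset, a replicate block and leaving out libraries were alternatives. The models were tested on simulated data. Library pairs differed beyond counting noise, with a chi-square of at least 14.2 per degree of freedom.

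The 43 genes and the lists were chosen with earlier results of these data known. Full values were given for the 2 genes of each role with the smallest p over 12 libraries, for the most abundant of each role in wt, and, added after their values were seen, for Ldha and Srm. In each related list the 2 genes with the smallest p were named.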

Additional observations from a re-analysis of the deposited data

Results flagged for a closer look

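In 6 of 86 tests (43 genes in each genotype of 6 libraries), 1 library stood apart from the other 5 of its genotype by more than 0.625 of the group's range. Chance flags about 1 in 20 groups of one kind, a rate that need not hold here, since each genotype joins VD and ZL libraries whose levels and spread differ. In wt 6, Polr1b was at 211.7 CPM (the others 109.0 to 133.1 CPM) and Rrp1b at 146 CPM (79.8 to 92.4 CPM). In Jak1 KO 6, Rrp1b was at 124 CPM (78.9 to 93.4 CPM). In Jak1 KO 4, Fbl was at 107 CPM (33.0 to 57.5 CPM), Rrp9 at 119 CPM (39.0 to 68.2 CPM) and Wdr74 at 193 CPM (40.7 to 96.2 CPM). All 6 values came from the 3 ZL libraries whose levels moved most with coding length, and the part of length in them was not tested.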

How the results depend on the processing

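Over 12 libraries edgeR called 58 genes, and 39 to 77 with 1 library left out. The count was 126 by DESeq2, 220 by limma-voom, 96 without wt 6, Jak1 KO 4 and Jak1 KO 6, 14 with no set term, 142 in VD alone and 0 in ZL alone. Of the 43 genes, 1 was called by limma-voom and 1 in VD alone; with 1 library left out none was called, 24 to 39 were below 0 and the median was -0.16 to -0.06. In ZL alone 17 were below 0, with a median of 0.068. Some 12-library signs turned: in ZL alone Nop56 (0.071), Gnl3 (0.10) and Ldha (0.068), with a length offset Gnl3 (0.054), in VD alone Eif5a (-0.29) and Nop58 (-0.11), by limma-voom Eif5a (-0.19) and Nop58 (-0.068), without those 3 ZL libraries Eif5a (-0.11), without Jak1 KO 4 Eif5a (-0.090) and Nop58 (-0.00038), and without wt 4 or Jak1 KO 5 Nop58 (-0.037 and -0.0058). With DESeq2 size factors 6 of the 43 changed sign, none of them called, as the median of all genes moved from -0.01 to 0.04.

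In VD the count of 142 genes was 402 by DESeq2, with 6 of the 43, all lower (1.71% of the 13184 tested genes were lower). With no low count filter the count was 382, over a different set of tested genes, also with 6 of the 43. With 1 library left out it was 62 (without wt 1) to 354 (without Jak1 KO 2), and 81 without Jak1 KO 1, with 0 to 9 of the 43 called, 40 to 41 below 0 and medians from -0.28 to -0.13. Polr1a turned to 0.021 without wt 2, 0.022 without Jak1 KO 1 and 0.081 without Jak1 KO 3, a range of -0.23 to 0.081. In ZL the count of 0 was 5 with no filter, 45 by DESeq2 and 3 with the length offset, with none of the 43. With 1 library left out, 13 to 24 of the 43 were below 0, with medians from -0.02 to 0.18. For the interaction DESeq2 called 1 gene. Members below 0 there were 9 in the main fit (median 0.29), 2 by limma-voom and 2 without the 3 ZL libraries (median 0.44). With 1 library left out they were 2 to 12, 2 without wt 6 or Jak1 KO 4, with medians from 0.22 to 0.42. The set median of 0.71 was 0.58 with DESeq2 size factors and by DESeq2, 0.47 without the 3 ZL libraries, 0.35 with the length offset and 0.39 to 0.78 with 1 library left out, 0.39 without Jak1 KO 4 and 0.59 without Jak1 KO 3. The causes were not tested.

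Same-numbered libraries did not all deviate together (r of 0.04, 0.19, 0.11, 0.20, 0.06 and 0.67, with wt 1 closest to Jak1 KO 3 at 0.07). In VD all same-numbered r were positive, and r between different numbers ran from -0.15 to 0.07. In ZL r between different numbers ran from -0.49 to 0.44. A pairing by number was not settled by these values, and the main fits took the libraries as unpaired. With a replicate block edgeR called 72 of 13184 genes over 12 libraries and none of the 43. In VD it called 402 genes, 234 of them lower, with 9 of the 43, all lower. Without the block these VD counts were 142 genes, 96 of them lower, and 1 of the 43. In ZL the block gave 9 genes and none of the 43.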
